A study of Mus musculus with 10 samples.

Results

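The report follows 9 transcription factors that pattern the heart chambers: the T-box factors Tbx5, Tbx20, Tbx2 and Tbx3, the basic helix-loop-helix factors Hand1, Hand2 and Hey2, the homeobox factor Nkx2-5 and the zinc finger factor Gata4. They were chosen by gene symbol in the platform annotation, and each of the 9 is read by 1 feature, so 9 of 22393 array features and 9 of 16504 named genes are described. Total RNA (TRIzol) of the lateral wall and of the septal wall of the mouse left ventricle was hybridised together, 1 wall in Cy3 and the other in Cy5. There were 4 dyssynchronous hearts (numbered 1, 3, 4 and 5) and 1 control pool, which combined the RNA of synchronous mice wall by wall. Each of these was hybridised on 2 arrays of opposite dye orientation, so 10 arrays held 10 RNA samples. The study's design ties the dyssynchrony, a loss of timing between the walls, to pacemaker implantation. The labels used here name neither strain nor age nor how many mice were pooled, and the walls of the pool were read from the letters L and S in its sample names.

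Chamber patterning in the embryo rests on a small network of these factors. Tbx5, Nkx2-5 and Gata4 bind together at enhancers of cardiac muscle genes and activate them, whereas Tbx2 and Tbx3 occupy the same T-box sites as repressors and keep the atrioventricular canal and the conduction system free of working-muscle genes. Tbx20 restrains Tbx2, Hand1 and Hand2 drive growth of the left and the right ventricular chamber respectively, and Hey2, a Notch-responsive repressor, holds the compact ventricular wall in its ventricular state. In the septum these programs meet, since its sides derive from left and right ventricular progenitors.

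Some of the members are shown by the 250 bases that precede their RefSeq start, because Hand2 and Hey2 carried a value other than 0 on every array and have a promoter window lying wholly outside their annotated gene. The capitals mark matches on either strand to GATAA (the core bound by GATA factors), GGTGTG (the core of the T-box element) or AAGTG (the core bound by Nkx2-5). The windows are chr8:57320733-57320982 on the plus strand for Hand2 and chr10:30842784-30843033 on the minus strand for Hey2, build GRCm38.p6, from RefSeq.
Hand2: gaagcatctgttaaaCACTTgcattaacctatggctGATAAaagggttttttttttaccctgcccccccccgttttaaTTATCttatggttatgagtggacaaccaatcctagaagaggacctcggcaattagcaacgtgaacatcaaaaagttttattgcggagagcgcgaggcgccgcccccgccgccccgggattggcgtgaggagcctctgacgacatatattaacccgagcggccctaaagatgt
Hey2: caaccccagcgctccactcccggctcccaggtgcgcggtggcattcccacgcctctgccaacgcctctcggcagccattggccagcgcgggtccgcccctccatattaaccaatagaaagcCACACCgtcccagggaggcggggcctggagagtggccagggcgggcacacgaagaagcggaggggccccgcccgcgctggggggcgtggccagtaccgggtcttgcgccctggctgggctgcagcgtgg
The Hand2 window held 2 GATAA matches and 1 AAGTG match, and the Hey2 window held 1 GGTGTG match, with 0 overlaps among the matches. Of 32851 mouse promoter windows of the same length, 22.6% held GATAA, 16.3% held GGTGTG and 40.7% held AAGTG, so none of these letters is rare. The table held windows for 4 of the 9 members, the others being Tbx20, which had exact zeros, and Nkx2-5, whose window overlaps its own annotated gene. Those windows held 0 matches to any of the 3 cores.

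Values are given on the log2 scale as the lateral over the septal wall, so a positive value is higher laterally. The values of a heart are means of its 2 dye-swapped arrays. The ratio was taken as Cy5 over Cy3, the usual output of the scanner software, and turned by the dye labels, which makes the direction likely rather than stated. The check of that reading was mixed: of 144 feature and heart (or pool) combinations beyond 4-fold on both arrays, 21 changed sign when the dyes were exchanged, as a wall difference must, and 123 did not. Beyond 8-fold 6 of 12 changed sign, and beyond 16-fold 3 of 3 did, in hearts 1 and 5. As deposited, the 2 arrays of a heart or of the pool correlated positively across genes (r from 0.17 to 0.35). Of the 90 values of the members, 21 were deposited as exactly 0, and what an exact 0 stands for was not found in the labels. Without the intensity of each channel no level can be given, and it is not known which members were above background. In bulk tissue a ratio cannot tell fewer cells of a type from less RNA per cell. The number of arrays limits the precision throughout, and the pool has no replicate.

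None of the 9 factors passed the test for a difference between the walls of the dyssynchronous hearts. Mean ratios ran from 0.28 for Hand1, through 0.27 for Tbx5, 0.16 for Hand2, 0.0012 for Hey2, -0.03 for Tbx3, -0.05 for Nkx2-5, -0.09 for Gata4 and -0.27 for Tbx20, to -0.33 for Tbx2. Each neighbouring pair in this order lay within the SD of at least 1 of its members, the SDs ranging from 0.04 to 0.63 (n = 4 hearts). limma, fitted across all 16504 genes, called 0 of the 9 (adjusted p between 0.797 and 1), beside 0% of all genes. At an unadjusted p under 0.05 there was 1 member, Hand1, and 5.66% of all genes. The median over the members was -0.03, and over all genes 0.0026. An exact two-sided sign-flip permutation test on 4 hearts cannot fall below 0.125.

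**Figure D1:**
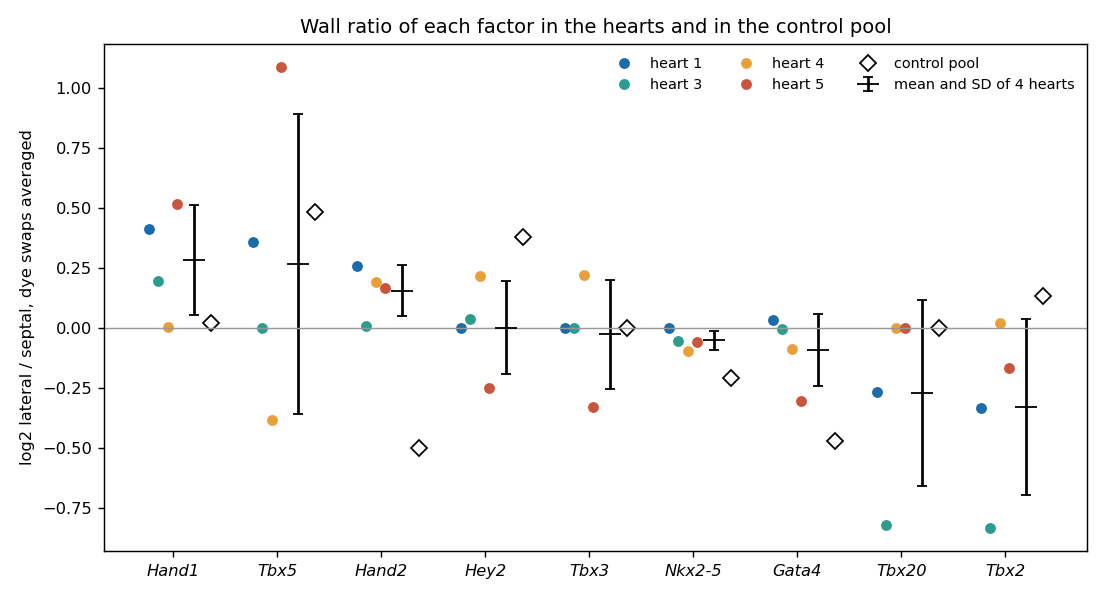
Log2 ratio of lateral over septal wall for each of the 9 factors, ordered by the mean of the hearts; dots are the 4 dyssynchronous hearts (dye swaps averaged), the bar is their mean with its SD, and the open diamond is the control pool (no replicate). The diamonds of Hand2, Gata4 and Nkx2-5 lie below all 4 hearts and those of Tbx2 and Hey2 above them.

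Hand2 was the member in which the hearts and the control pool stood farthest apart. In hearts 1, 3, 4 and 5 the ratio was 0.26, 0.0073, 0.19 and 0.17, a mean of 0.16 ± 0.11 (SD, n = 4), and in the pool it was -0.50, or 1.42-fold higher in the septum. The pool arrays read -0.53 with lateral RNA in Cy5 and -0.48 with septal RNA in Cy5, so the pool ratio followed the wall when the dyes were exchanged. On single arrays of the hearts the ratio ran from -0.13 to 0.56, with 4 above 0 and 4 below and opposite signs on the 2 arrays of every heart, yet all 8 lay above both pool arrays. The same separation upward was met by 1.41% of all genes and downward by 1.21%, the latter with 0 of the 9 members. The difference of 0.66 ± 0.14 (SE), or 1.58-fold, did not pass in limma over all genes (unadjusted p 0.00756, adjusted p 0.850), with the single pool assumed to vary like 1 heart, and 0% of all genes passed (4.74% had an unadjusted p under 0.05). Within the arrays with lateral RNA in Cy5 the difference was 0.57, and within those with lateral RNA in Cy3 it was 0.74.

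Gata4 and Nkx2-5 leaned the same way in this comparison, with smaller differences. Gata4, which opens and activates cardiac enhancers, was at 0.03, -0.0050, -0.09 and -0.30 in hearts 1, 3, 4 and 5, a mean of -0.09 ± 0.15 (SD, n = 4), which was -0.02 without heart 5. Its pool ratio was -0.47, with -0.49 and -0.46 on the 2 arrays. The heart arrays of Gata4 spread from -0.64 to 0.63 and so overlapped both pool arrays, although all 4 heart means lay above the pool. Heart 3 held the extremes of that range, 0.63 with lateral RNA in Cy5 and -0.64 with the dyes exchanged, and these cancelled in its mean. For Nkx2-5, the homeobox partner of Gata4, the heart ratios were -0.00017, -0.05, -0.09 and -0.06, a mean of -0.05 ± 0.04 (SD, n = 4), against -0.21 in the pool. The pool arrays of Nkx2-5 differed, at -0.38 with lateral RNA in Cy5 and -0.04 with septal RNA in Cy5. Nkx2-5 had the smallest spread of the 9 in these means, and 95.8% of all genes varied more between hearts. Its single heart arrays ran from -0.23 to 0.15 and so reached past the pool array at -0.04. The 2 arrays of hearts 1, 3 and 5 had opposite signs, which partly cancelled in the means. The differences from the pool were 0.38 ± 0.17 (SE) for Gata4 and 0.16 ± 0.11 (SE) for Nkx2-5, and neither passed in limma (adjusted p 1 for each).

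Counted over the members, 3 of 9 (Hand2, Nkx2-5 and Gata4) had all 4 hearts above the pool, where 17.7% of all genes did, and 2 of 9 (Tbx2 and Hey2) had all 4 hearts below it, where 18.1% did. The median difference from the pool was -0.03 over the members and 0 over all genes. In the pool several gene lists leaned to the septal side. Of 15 measured chamber targets, genes that these factors are known to regulate in heart muscle, 12 were below 0 (median -0.11). Among them was the intermediate filament gene Des at -0.62. The lean was not confined to that list. Below 0 were 14 of 19 partner factors (median -0.12), 9 of 12 BMP signalling genes (-0.11), 8 of 11 Notch pathway genes (-0.06) and 6 of 7 fibroblast markers (-0.06). Of 7 smooth muscle and pericyte markers 2 were below 0 (median 0.12). Of all genes, 45.5% were below 0 in the pool, with a median of 0. The medians of the chamber targets in hearts 1, 3, 4 and 5 were 0.0056, -0.07, -0.0083 and -0.12. The part of muscle content in the pool ratios of Hand2, Gata4 and Nkx2-5 was not tested.

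Hand1, the left-ventricular Hand factor, had the highest mean ratio of the 9, and all of its hearts were on the lateral side. Its ratios were 0.41, 0.20, 0.0028 and 0.52 in hearts 1, 3, 4 and 5, a mean of 0.28 ± 0.23 (SD, n = 4), beside 0.02 in the pool. This rested on few arrays, since 3 of the 8 heart values were exactly 0 and only those of heart 1 (0.85) and heart 5 (1.04) with septal RNA in Cy5 and that of heart 3 with lateral RNA in Cy5 (0.40) lay far from 0. The ratio did not pass in limma over all genes (unadjusted p 0.0478, adjusted p 0.797), and the exact sign-flip p was 0.125, the smallest that 4 hearts allow. With exact zeros taken as missing, the mean was 0.46. With the deposited values taken as already turned, the sign changed: the means were -0.19 for Hand1, above 0 in 2 of 4 hearts, and -0.11 for Hand2, above 0 in 1 of 4. As turned by the dye labels, both Hand factors were lateral in 4 of 4 hearts, which held for 7.8% of all genes. Nkx2-5 was septal in 4 of 4, which held for 7.63%, although its heart 1 was at only -0.00017. No member lay beyond 1.5-fold in one direction in all 4 hearts, a limit passed by 0.109% of all genes.

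**Figure D2:**
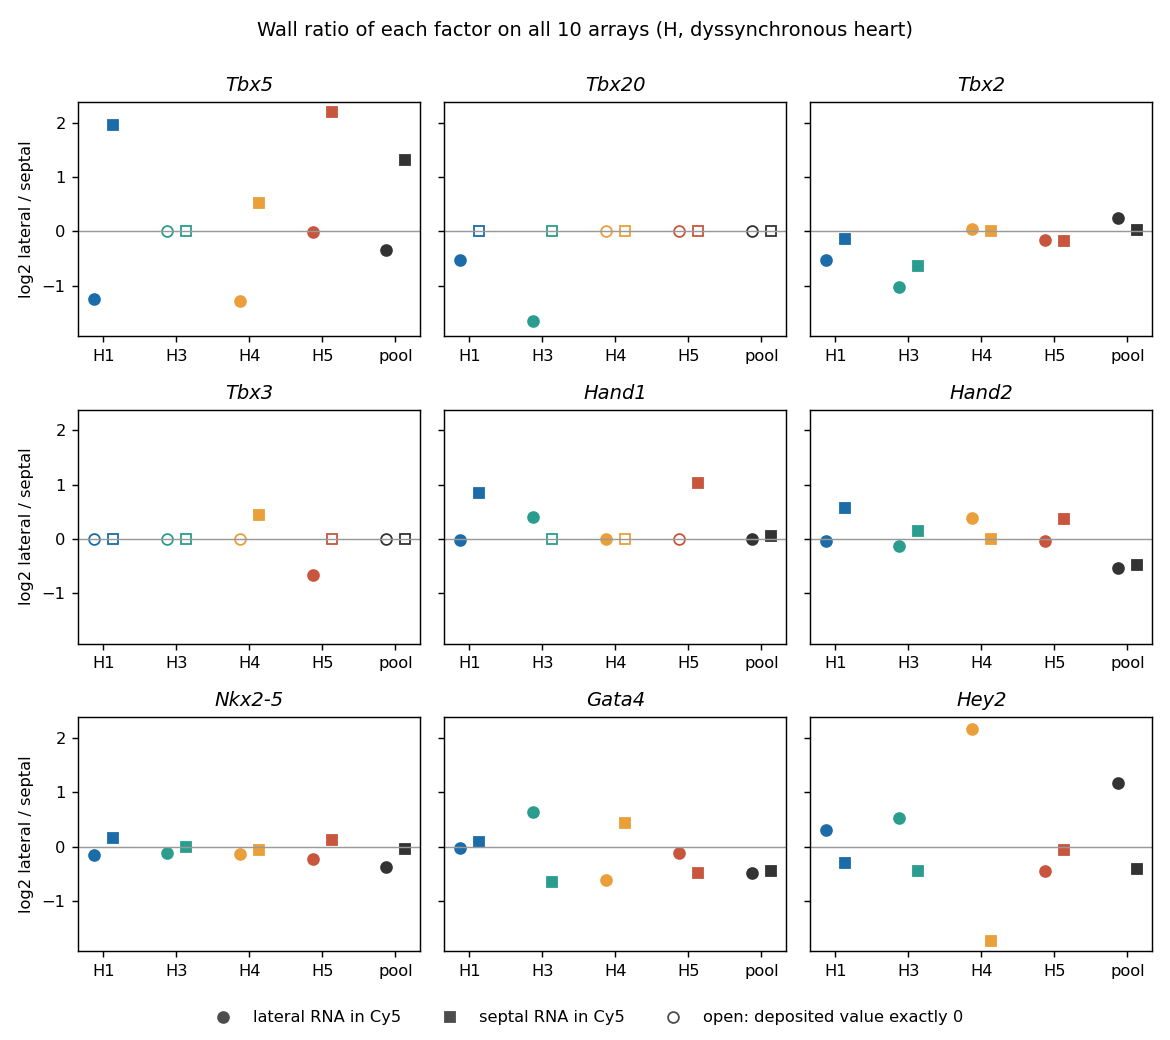
Log2 ratio of lateral over septal wall on each array, 1 panel per factor; circles are arrays with lateral RNA in Cy5, squares those with septal RNA in Cy5, and open symbols are values deposited as exactly 0. Circles and squares lie on opposite sides of 0 in Tbx5 and Hey2, except in heart 3 for Tbx5 (both 0) and heart 5 for Hey2 (both below 0). Among the hearts they also do so in all 4 for Hand2, in hearts 1, 3 and 5 for Nkx2-5, in hearts 1, 3 and 4 for Gata4 and in heart 1 for Hand1. Tbx20 and Tbx3 are mostly open, and the Hand2 pool symbols lie below every Hand2 heart symbol.

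Tbx5, the T-box activator of atrial and left ventricular genes, varied most between hearts. Its ratios were 0.36, 0, -0.38 and 1.09 in hearts 1, 3, 4 and 5, a mean of 0.27 ± 0.63 (SD, n = 4), and 0.49 in the pool. Heart 5, the single case of a member beyond 1.5-fold on the lateral side in any heart, decided the mean, which was -0.0078 without it. Such a heart was found for 17.9% of all genes. In hearts 1, 4 and 5 the arrays disagreed in sign: with lateral RNA in Cy5 the values were -1.24, 0, -1.29 and -0.01, and with septal RNA in Cy5 they were 1.96, 0, 0.52 and 2.19. As deposited, Tbx5 was below 0 on 8 arrays and exactly 0 on the 2 arrays of heart 3. Its ratios thus followed the dye on every array with a value other than 0. The mean of the deposited ratios, here called the dye part, was -0.90 over the heart arrays and -0.83 in the pool, and only 2.34% of all genes had a larger one in the hearts.

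Hey2 showed the opposite dye part and a wall ratio near 0. The heart ratios were 0.0010, 0.04, 0.22 and -0.25, a mean of 0.0012 ± 0.19 (SD, n = 4), beside 0.38 in the pool. Heart 4 gave 2.17 with lateral RNA in Cy5 and -1.73 with septal RNA in Cy5, the widest gap between the arrays of 1 heart among the members. The deposited value was above 0 on 9 of the 10 arrays, and the dye part was 0.64 over the hearts and 0.79 in the pool. Of all genes, 7.44% had a larger dye part than Hey2. Over the 9 members, the mean dye part of the hearts was larger than the mean wall part in 4 (Tbx5, Tbx3, Nkx2-5 and Hey2). This held for 66.6% of all genes, and in Tbx20 the 2 parts were equal. Dye parts of opposite sign cancel in such a mean. In hearts 1, 3, 4 and 5 they were -0.30, -0.13, 0.19 and -0.20 for Hand2, larger in size than the wall ratio in every heart. For Gata4 they were -0.05, 0.64, -0.52 and 0.18, larger in size than the wall ratio except in heart 5. If the authors had already turned the deposited ratios to 1 wall over the other, the mean dye parts would be the wall differences, with Tbx5 and Hey2 the farthest from 0 and on opposite sides. In that reading limma called neither (adjusted p 0.242 for Tbx5 and 0.397 for Hey2), and the Hand2 difference from the pool was -0.08. Between walls, 3140 of 16504 genes then had an unadjusted p under 0.05 in limma, against 934 in the reading used here, and 0 were called in either. What made the former count larger was not tested.

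**Figure D3:**
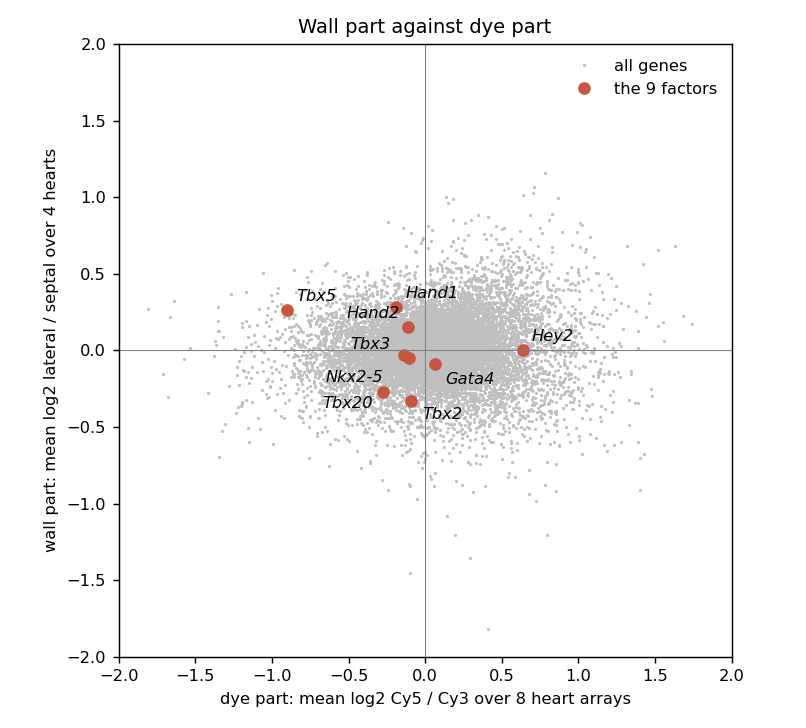
Mean wall ratio of the 4 hearts (vertical axis, log2 lateral over septal) against the dye part (horizontal axis, mean deposited log2 ratio over the 8 heart arrays); grey points are all genes, of which 10 lie outside the axes, and the labelled points are the 9 factors. Tbx5 at -0.90 and Hey2 at 0.64 lie far out along the dye axis, and no factor stands outside the cloud along the wall axis.

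The repressor Tbx2, which marks the atrioventricular canal in the embryo, had the lowest mean ratio. It was at -0.33, -0.83, 0.02 and -0.17 in hearts 1, 3, 4 and 5, a mean of -0.33 ± 0.37 (SD, n = 4), and 0.14 in the pool. Heart 3 lay beyond 1.5-fold on the septal side on both of its arrays, at -1.02 and -0.64, and without heart 3 the mean was -0.16. Tbx2 was septal on 6 of the 8 heart arrays, and its sign did not depend on the dye in any heart or in the pool. The mean ratio did not pass in limma (unadjusted p 0.0963, adjusted p 0.797). The difference from the pool was -0.46 ± 0.35 (SE, adjusted p 1 in limma), with all 4 hearts below the pool. It was -0.30 without heart 3 and -0.20 with the deposited values taken as already turned.

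Tbx20 and Tbx3 had few values other than 0. Tbx20, a T-box factor of the adult as well as the embryonic myocardium, was exactly 0 on 8 of the 10 arrays. It differed from 0 only with lateral RNA in Cy5 in heart 1 (-0.53) and heart 3 (-1.65). Its mean of -0.27 ± 0.39 (SD, n = 4) was -0.09 without heart 3. Tbx3, the repressor of the sinus node and the conduction bundles, was likewise 0 on 8 arrays, with 0.44 on 1 array of heart 4 and -0.66 on 1 array of heart 5. In both members every heart ratio other than 0 is the mean of 1 value and 1 exact 0. Exact zeros on 8 or more arrays were found for 2.16% of all genes, and 5 of the 9 members had no exact 0 at all, as had 78.4% of genes. A heart beyond 1.5-fold on the septal side was found for 2 of the 9 members (Tbx20 and Tbx2, each by heart 3) and for 17.3% of all genes.

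For the 3 members with the largest ratios the genes of most similar pattern were taken as those with the smallest root mean square difference over the 4 hearts and the pool. Nearest to Tbx5 were A26c3 (0.14), Ift140 (0.16) and Mx2 (0.16), against a root mean square ratio of 0.58 for Tbx5 itself. Nearest to Tbx2 (0.41) were Apod (0.05), 6430562O15Rik (0.09) and Tbx20 (0.10). Nearest to Tbx20 (0.39) were Chst10 (0.08), Apod (0.085) and Mansc1 (0.09). Tbx2 and Tbx20 thus resembled each other in that heart 3 was lowest and heart 1 second lowest in both. Tbx20 was exactly 0 on 8 arrays, so in hearts 4 and 5 and in the pool its likeness is that of exact zeros. Every pattern has a nearest gene, and whether these were nearer than usual was not tested.

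For relatives and partners of the factors, limma called 0 in either direction in both comparisons. Among 11 other measured T-box genes the median was -0.03, with 0 lateral and 1 septal in all 4 hearts. The septal one was Mga, a T-box and Max-binding factor, at -0.11 ± 0.12 (SD, n = 4; pool -0.23), while Tbx15 (0.46 ± 0.58), Eomes (0.49 ± 0.59) and the epicardial factor Tbx18 (-0.18 ± 0.81) had SDs larger than their means. Of all genes, 7.63% were septal and 7.8% lateral in all 4 hearts, the shares to set beside the counts here and below. Of 19 partner factors, 7 were septal and 1 lateral in all 4 hearts (median -0.05, pool -0.12). The septal ones included Isl1, of the second heart field (-0.33 ± 0.27, pool 0.30, exactly 0 on 3 arrays), Casz1 (-0.25 ± 0.21, pool -0.48), Meis2 (-0.18 ± 0.11, pool -0.21) and the muscle coactivator Myocd (-0.18 ± 0.15, pool -0.39). The lateral one was Mef2c (0.11 ± 0.12, pool 0.08). Gata6, the closest relative of Gata4 in the heart, was at -0.03 ± 0.08 (pool -0.05).

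Factors that set atrial or ventricular identity were examined beside the members. Of 4 measured atrial factors, Nr2f2 was lateral in all 4 hearts, at 0.15, 0.17, 0.31 and 0.28, a mean of 0.23 ± 0.08 (SD, n = 4), and septal in the pool at -0.15. Its ratio did not pass in limma (unadjusted p 0.0126, adjusted p 0.797). Hey1, the atrial relative of Hey2, was at 0.14 ± 0.14 (pool -0.0093) and Shox2 at 0.08 ± 0.46 (pool 0.06). Among 7 ventricular factors, 2 (Hand1 and Prdm16) were lateral and 1 (Mycn) septal in all 4 hearts. Irx4, a ventricle-specific Iroquois factor, was at 0.01 ± 0.05 (pool -0.0020), Irx5 at -0.30 ± 0.33 and Mycn at -0.30 ± 0.25 (pool 0.24).

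The genes of signals upstream of the members had medians near 0 over the hearts, 0.05 for the Notch and -0.04 for the BMP list. The Notch median differed between hearts, at -0.17, 0.13, 0.18 and 0 in hearts 1, 3, 4 and 5. In the Notch pathway, which drives Hey genes, 1 of 11 genes, the receptor Notch1, was lateral in all 4 hearts (0.14 ± 0.06, SD, n = 4; pool 0.02), 0 were septal, and the ligand Dll4 was at 0.15 ± 0.15. Among 12 measured genes of BMP signalling, which induces Tbx2 and Tbx3, the early target Id1 was lateral (0.13 ± 0.07) and the mediator Smad4 septal (-0.15 ± 0.08) in all 4 hearts, and the receptor Bmpr2 was at 0.19 ± 0.24. Downstream, 15 chamber targets were measured, with 1 lateral (Pln) and 1 septal (Myl2, -0.14 ± 0.07) in all 4 hearts and a median of -0.06. Nppb, a target of Gata4 and Nkx2-5, was at -0.23 ± 0.17 (pool 0.0061), the connexin genes Gja5 and Gja1 at 0.15 ± 0.22 (pool -0.02) and 0.18 ± 0.21 (pool -0.33). Nppa, activated by Tbx5 with Nkx2-5 and repressed by Tbx2 and Tbx3, was at -1.35 in heart 1, 0.20 in heart 3, -0.08 in heart 4 and -2.27 in heart 5. In heart 5 Nppa was thus lowest while Tbx5 was highest. That Tbx5 ratio depended on the dye, with 2.19 for septal RNA in Cy5 and -0.01 for lateral RNA in Cy5. Nppa is also among the atrial muscle markers given below. Myl7 of that list ranked the hearts as Nppa did, at -5.18, -3.36, -3.53 and -6.10 in hearts 1, 3, 4 and 5. A relation between Nppa and Tbx5 was not tested.

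Markers of other cell types moved with the hearts and are given for that reason. Of all genes, 7.63% were septal and 7.8% lateral in all 4 hearts. Of 8 atrial muscle markers, 4 were septal in all 4 hearts and 1, Nr2f2, was lateral. Their medians were -0.84, -0.49, -0.32 and -1.88 in hearts 1, 3, 4 and 5 and -0.06 in the pool, and Myl7, the atrial light chain, was at -5.18, -3.36, -3.53 and -6.10 (pool -0.12). Hearts 1 and 5, with the lowest atrial medians, were also the hearts with the highest Tbx5 and Hand1 ratios, on the opposite side. Those high ratios came from the arrays with septal RNA in Cy5 (Tbx5 1.96 and 2.19, Hand1 0.85 and 1.04). With lateral RNA in Cy5 the values of hearts 1 and 5 were -1.24 and -0.01 for Tbx5 and -0.02 and 0 for Hand1. The other members did not have hearts 1 and 5 highest. Hand2 was highest in hearts 1 and 4 (0.26 and 0.19), and Gata4 and Hey2 were lowest in heart 5 (-0.30 and -0.25). Of 10 conduction markers 5 were septal in all 4 hearts (median -0.32, pool -0.03), among them Cacna1g at -0.63 ± 0.28. Of 7 valve and fibrous tissue markers 4 were septal in all 4 hearts (median -0.62, pool -0.18). Of 7 smooth muscle and pericyte markers 5 were lateral in all 4 hearts (median 0.25, pool 0.12). The medians were -0.01 for ventricular muscle (pool -0.19), 0.05 for endothelial, -0.16 for fibroblast, -0.12 for epicardial, -0.17 for lung and -0.23 for skeletal muscle markers. In heart 5 the skeletal muscle median was -0.90. The part of these markers in the ratios of the 9 factors was not tested.

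**Figure D4:**
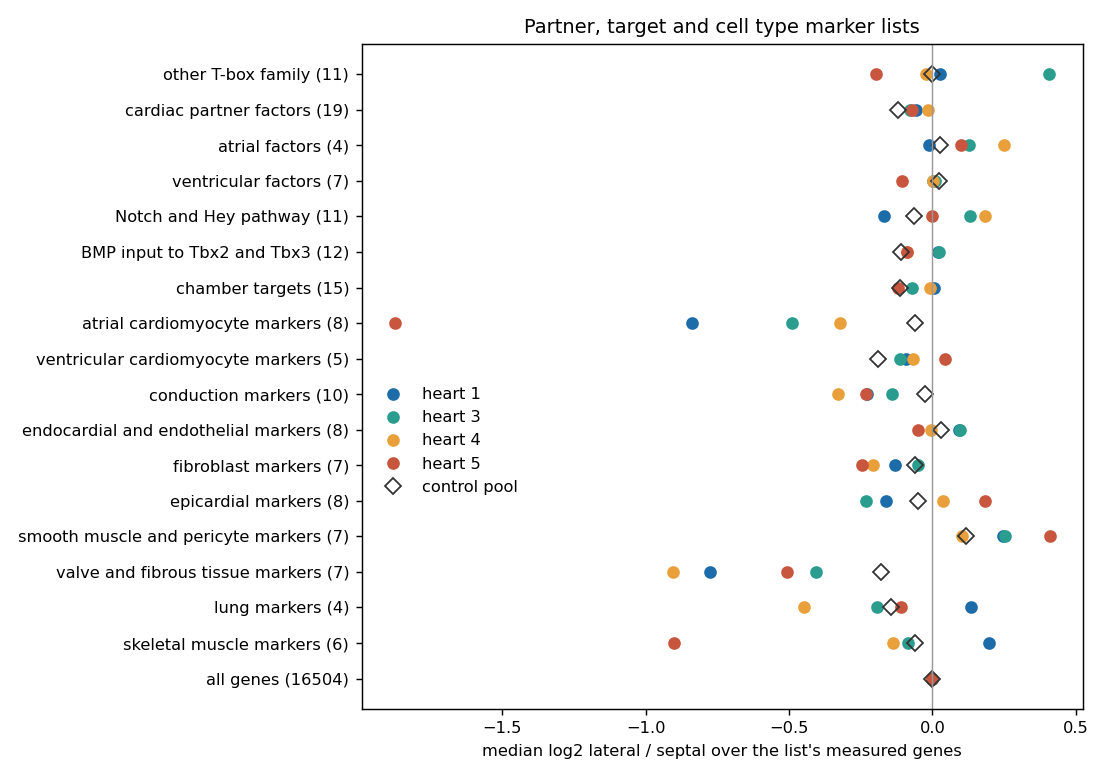
Median log2 ratio of lateral over septal wall over the measured genes of each list (number of genes in brackets), with 1 dot per dyssynchronous heart and an open diamond for the control pool. The atrial, valve and fibrous tissue, conduction and fibroblast markers lie on the septal side in all 4 hearts. The partner, upstream and target lists lie within 0.25 of 0, apart from the other T-box genes in heart 3 at 0.41.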

How the data were processed

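Agilent Feature Extraction 7.5 produced the values of the 10 arrays, per the submitters' processing notes. The deposited values were taken as log10 ratios of Cy5 over Cy3. They are signed, with a median of 0 on every array, but the labels give neither log base, direction nor dye normalization. Values were multiplied by 3.32 to log2 and signed so that positive is lateral. Of 22393 features 18218 had 1 gene symbol, 16 several and 4159 none, and averaging features gave 16504 genes. A value of -2, held by 0 named features, was treated as missing. Exact zeros (7.69% to 15.1% of features per array) were kept.

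Each heart, and the pool, entered 1 linear model per gene as the mean of its dye swaps (lmFit and eBayes of limma 3.58.1, with statmod 1.5.0, in R 4.3.3), with Benjamini-Hochberg adjustment over all genes and a threshold of 0.05. The mean of the hearts was tested against 0 and against the pool, both two-sided. The procedure was tested on simulated data. The members and gene lists were chosen with earlier results of these data known. Besides the members, the text could name the 3 genes most like each of the 3 members with the largest ratios, from each list the genes of lowest unadjusted p (at most 3), and a fixed set of 15 cardiac genes. Prdm16 and Pln fall outside the rule and were chosen once their values had been seen, to account for a count. Alternatives covered centring, scaling, single dye orientations, single arrays with a dye term, zeros as missing, single features, already turned values, a filter on dye bias, other moderation, fold limits and each heart left out.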

Additional observations from a re-analysis of the deposited data

Results flagged for a closer look

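Hand2 was picked out because all 4 heart ratios were above 0 while both pool arrays were below 0. Its hearts lay 0.66 above the pool, and limma did not call that difference (adjusted p 0.850). With the deposited values taken as already turned the difference was -0.085. Among the 9 members, 0 sets of 4 hearts held a heart far from the other 3, where 0.45 are expected by chance, since about 1 in 20 sets is picked out this way.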

How the results depend on the processing

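limma called 0 of the 9 members under every alternative in which they were tested, in either comparison (adjusted p between 0.242 and 1, and for the Hand2 difference from the pool between 0.614 and 1). Over all genes, a model of single arrays had dye as a term and heart as a random block. It called 20 genes between walls and 3 against the pool, 0 of them members. The correlation it estimated between the arrays of a heart was -0.05, so it counted those 2 arrays almost as separate replicates. An ordinary test without moderation called 1 against the pool. The other alternatives called 0, and with 1 heart left out the count was 0 each time (at most 867 genes at an unadjusted p under 0.05 between walls, and at most 929 against the pool). The number of members beyond the fold limit in every heart stayed 0 at the lower and the higher limit tried. With lateral RNA in Cy5 alone the mean ratio of Tbx5 turned to -0.64. With lateral RNA in Cy3 alone those of Tbx3, Nkx2-5 and Hey2 turned to 0.11, 0.055 and -0.64, and the Tbx3 difference from the pool to 0.11. With the deposited values taken as already turned, the means of Tbx5, Hand1, Hand2 and Gata4 turned to -0.90, -0.19, -0.11 and 0.061, and the differences of Hand1 and Hand2 from the pool to -0.16 and -0.085. With arrays scaled to a common spread Hey2 was at -0.068. Leaving out a heart turned Tbx5 (-0.0078 to 0.48), Tbx3 (-0.11 to 0.074), Hey2 (-0.071 to 0.086) and the Tbx3 difference from the pool (-0.11 to 0.074). With exact zeros as missing Tbx20 rested on 1 array each of 2 hearts and was at -1.09. Likeness over the hearts alone was computed as well, and put Tns3 nearest to Tbx5, Apod to Tbx2 and Chst10 to Tbx20. The hearts could not be paired with the pool, because the pool is a single replicate and cannot be matched to them by number. Both walls of a heart are on 1 array, so the test between walls is already paired.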
